A study of Mus musculus with 16 samples.

Results

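The genes described here are 10 genes of lung endothelium, the cell layer that lines blood and lymphatic vessels: Car4, Ramp2, Calcrl, Vwf, Lyve1, Cldn5, Cdh5, Pecam1, Ptprb and Emcn. They were taken as a list of names, and every probe whose annotated symbol was one of them was followed over all arrays. The list was chosen with earlier results of these data known, so counts over it are not an independent test. Of the 10 genes, 9 had a probe and Cldn5 had none among the probes analysed here. Pecam1 had 2 probes, so that 10 probes of the 25697 analysed (16593 named genes) are described, and all 10 were among the 17810 probes bright enough to test.

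The samples were total RNA of lung tissue from 16 female mice of the strain C57BL/6N, each hybridised to its own Illumina bead array, with 4 mice in each of 4 groups. The groups were Prdm11 knockout mice challenged with ovalbumin (OVA), untreated Prdm11 knockout mice, OVA-challenged wild type mice and untreated wild type mice. The challenged mice were 35 weeks old and had received 10 µg OVA with 2 mg alum into the abdomen, followed by 3 exposures of 30 min to an aerosol with 1% OVA. Untreated mice were 22 weeks of age, and the labels do not settle whether they had been sensitised, so that age and challenge cannot be told apart in any challenge comparison. Prdm11 had 0 named probes, and genotype rests on the labels. The lung samples held markers of the epithelium (Sftpc, Sftpb, Ager and Scgb1a1 exceeded the array's 40th percentile in every mouse) and of endothelium (Cdh5, Pecam1 and Tek likewise). The endothelial markers Kdr and Tie1 did not do so in every mouse. Kdr exceeded it in 2 of 4 and Tie1 in 3 of 4 challenged knockout mice, and Tie1 in 1 of 4 challenged wild type mice. Markers of skeletal muscle (Acta1, Ckm and Mylpf) and of heart muscle (Myl7 and Nppa, but not Myl2) exceeded it in every mouse. Array medians lay between 85.4 and 86.5 intensity units. Challenged wild type replicate 4 stood apart over all probes, correlating at 0.676 to 0.842 with the remaining arrays, against 0.877 to 0.990 among those. Challenged knockout replicate 3 stood apart on the genes described here, as given below, but not on these alone. Its mean log2 level was 8.82 for alveolar type 1 cell genes, against 10.01 to 10.70 in the other challenged knockout mice. For alveolar type 2 cell genes it was 9.43, against 10.70 to 11.18.

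Each of the 9 genes marks or serves the vessel wall. VE-cadherin (Cdh5) joins endothelial cells to each other, PECAM-1 (Pecam1) sits at the same contacts, and the receptor phosphatase VE-PTP (Ptprb) binds VE-cadherin and the receptor Tie2. Calcrl and Ramp2 together form a receptor for the peptide adrenomedullin, which keeps vessels tight and is needed for lymphatic development in mice. Car4 is a carbonic anhydrase anchored to the surface of lung capillaries, endomucin (Emcn) is a sialomucin of capillaries and veins, von Willebrand factor (Vwf) is a clotting protein stored in endothelial granules, and Lyve1 is a hyaluronan receptor of lymphatic endothelium and of some macrophages. Most of the genes are thus known from blood vessel endothelium, most of it shared by vessels of all kinds. Lyve1 is not confined to lymphatic endothelium, and which cells carried it in these lungs was not tested. In lung RNA as a whole, fewer cells of a type and less RNA per cell cannot be told apart.

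Promoter sequences from RefSeq (GRCm38.p6) were at hand for 3 of the 9 genes and are shown because the 9 genes moved together across the arrays. Each runs from 250 bases before the transcription start to 50 after it, 5′ to 3′ on the strand of the gene. Capitals mark GGAAG, or CTTCC on the other strand, the core that ETS transcription factors bind; ETS factors are known regulators of endothelial genes. The promoter of Car4 lies at chr11:84957504-84957803 on the plus strand, that of Calcrl at chr2:84425217-84425516 on the minus strand, and that of Emcn at chr3:137340828-137341127 on the plus strand.
Car4: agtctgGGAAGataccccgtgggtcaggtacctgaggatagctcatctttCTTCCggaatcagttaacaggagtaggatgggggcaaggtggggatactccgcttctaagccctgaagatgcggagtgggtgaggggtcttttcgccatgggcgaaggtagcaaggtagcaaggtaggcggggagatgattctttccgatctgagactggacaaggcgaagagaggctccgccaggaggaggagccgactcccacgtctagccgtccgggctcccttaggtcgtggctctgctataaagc
Calcrl: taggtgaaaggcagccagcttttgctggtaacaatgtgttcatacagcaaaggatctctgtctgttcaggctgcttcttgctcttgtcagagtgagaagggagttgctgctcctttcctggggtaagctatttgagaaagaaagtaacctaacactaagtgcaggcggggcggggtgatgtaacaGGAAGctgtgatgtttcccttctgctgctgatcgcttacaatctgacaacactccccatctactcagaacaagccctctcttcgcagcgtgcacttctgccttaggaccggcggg
Emcn: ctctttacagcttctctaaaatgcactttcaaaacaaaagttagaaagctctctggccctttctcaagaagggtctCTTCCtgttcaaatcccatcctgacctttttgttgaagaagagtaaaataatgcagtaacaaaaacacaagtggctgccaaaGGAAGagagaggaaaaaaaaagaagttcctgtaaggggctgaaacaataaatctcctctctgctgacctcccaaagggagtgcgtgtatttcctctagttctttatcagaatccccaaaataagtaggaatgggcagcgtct
The core occurred 2 times in the promoters of Car4 and Emcn and 1 time in that of Calcrl. It is common in promoters of any gene: 71.4% of 32851 promoters of the same length held it on either strand, with a median of 1 match. The letters TATAAA, those of the TATA box, lay in the Car4 promoter only, among these 3, and in 13.6% of all promoters. In Car4 they lay 42 bases after the transcription start, not upstream of it. The SOX letters ACAAT, searched on both strands, lay 2 times in the Calcrl promoter and 1 time in that of Emcn, against 31.0% of all promoters with at least 1. These matches describe letters, not binding.

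All 10 probes were lower in challenged than in untreated Prdm11 knockout lungs, by 2.25-fold (Emcn) to 5.11-fold (Lyve1). All 10 passed the test (limma over all probes, Benjamini-Hochberg adjusted p under 0.05), where 7.48% of all tested probes were called lower and 16.6% in either direction. In 10 of 10 probes every challenged knockout mouse lay below every untreated one, a separation found in 18.6% of all probes. The median log2 difference of the 10 probes was -1.46, against -0.05 for all probes. In wild type lungs all 10 differences were negative with a median of -0.93, against 0.03 for all probes. There 6 of 10 probes passed, where 17.7% of all probes were called lower and 29.4% in either direction. In 7 of 10 the wild type groups did not overlap (15.7% of all probes).

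**Figure D1:**
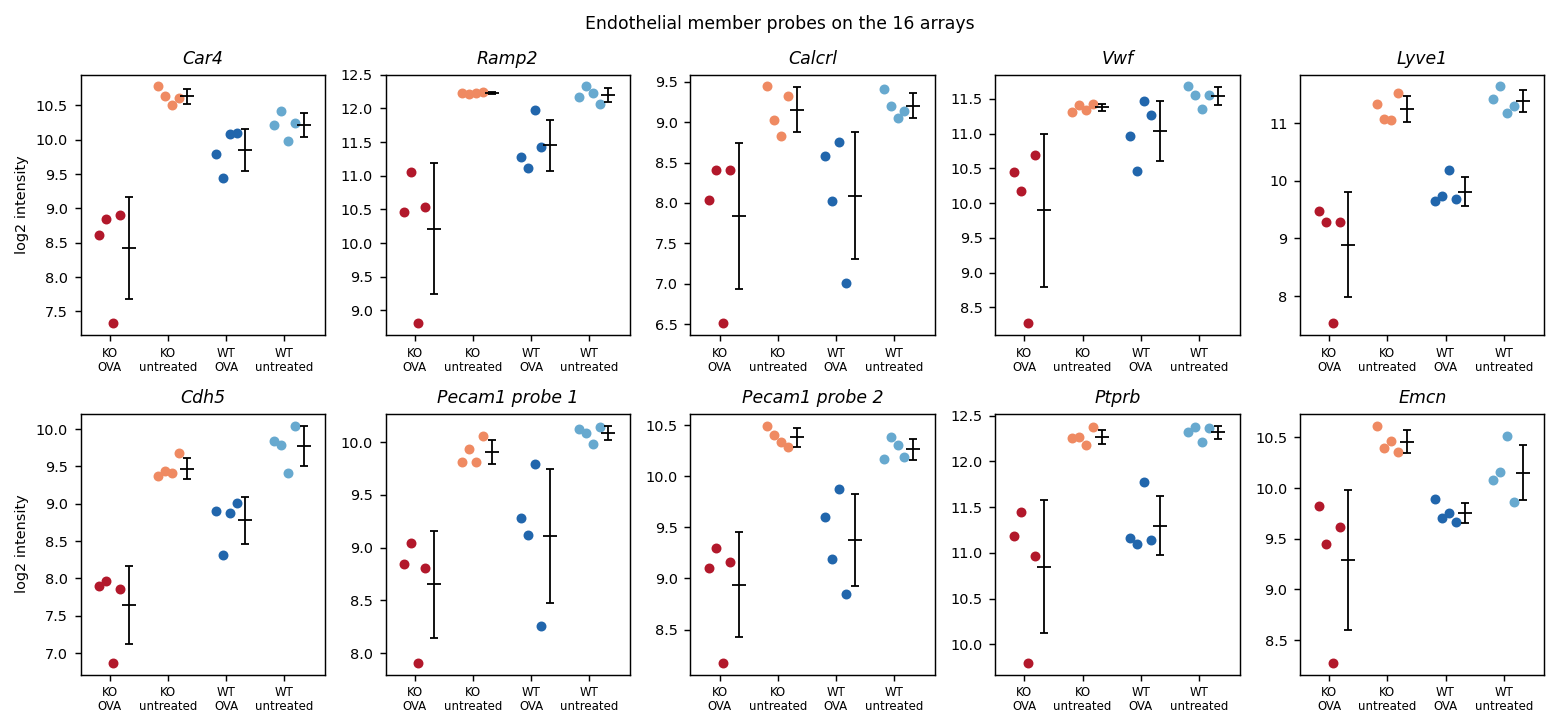
Log2 intensity of each of the 10 probes (1 panel per probe, each with its own vertical axis) on the 16 arrays, in challenged knockout, untreated knockout, challenged wild type and untreated wild type mice; points are mice in replicate order, and the bar beside them is the mean ± SD (n = 4). Challenged knockout replicate 3 is the lowest point of its group in all 10 panels.

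Among the surface proteins of capillaries, Car4 separated the genotypes most. Its probe read 391.1, 461.9, 160.3 and 476.4 intensity units in the challenged knockout mice, against 1754.1, 1585.8, 1452.2 and 1565.8 in the untreated knockout mice. In challenged wild type mice it read 885.1, 694.3, 1083.7 and 1097.9, against 1192.2, 1365.5, 1006.9 and 1216.3 in untreated wild type mice. The knockout groups were far apart, while 2 challenged wild type mice fell within the untreated range. The challenge difference was -2.21 ± 0.27 on the log2 scale (SE, n = 4 each; limma, adjusted p = 9.57e-05) in the knockout, a 4.63-fold lower level. In wild type it was -0.36 ± 0.27 (limma, adjusted p = 0.302) and did not pass. The difference between these differences, the interaction, was -1.85 ± 0.38 (limma, adjusted p = 0.0140). In untreated mice all 4 knockout values of Car4 lay above all 4 wild type values, which held for 1 of the 10 probes and for 2.17% of all probes in this direction, and the difference of 0.42 did not pass (limma, adjusted p = 1).

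Emcn read 906.6, 698.6, 310.1 and 783.8 in challenged knockout mice, against 1569.9, 1347.5, 1410.2 and 1314.8 in untreated knockout mice. In wild type it read 950.4, 834.5, 866.3 and 811.8 after challenge, against 1084.4, 1143.7, 1459.4 and 928.3 without it. The knockout groups were clear of each other, and in wild type 1 challenged mouse lay above 1 untreated mouse. The log2 differences were -1.17 ± 0.25 in the knockout (limma, adjusted p = 0.00396), the smallest of the 10, and -0.40 ± 0.25 in wild type (limma, adjusted p = 0.219).

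Of the adrenomedullin receptor pair, both parts passed in the knockout and Calcrl alone in wild type. Ramp2, the accessory protein, read 1405.4, 2121.7, 447.3 and 1479.8 in challenged knockout mice, against 4788, 4756.2, 4788 and 4846.9 in untreated knockout mice. In challenged wild type mice it read 2472.5, 2212.4, 4051.1 and 2765.4, against 4605.2, 5141.3, 4813.8 and 4306.3 in untreated ones. Neither genotype's groups overlapped, and challenged wild type replicate 3 stood near the untreated level. The challenge difference was -2.02 ± 0.33 in the knockout (limma, adjusted p = 0.00073) and -0.75 ± 0.33 in wild type (limma, adjusted p = 0.0966), which did not pass. Without challenged wild type replicate 3 the wild type value was -0.93 and passed (limma, adjusted p = 0.0469), as it did without challenged knockout replicate 3 (-0.75, adjusted p = 0.00518).

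Calcrl, the receptor's membrane-spanning part, read 262.9, 340.3, 91 and 339 in challenged knockout mice, against 696.8, 522.7, 454.1 and 643.8 in untreated knockout mice. The challenged wild type values were 382.3, 259.9, 432 and 128.9, against 683, 587.6, 531 and 566.2 in untreated ones. The groups of each genotype were apart, and 1 mouse in each challenged group was far below the others. Calcrl fell by 1.32 ± 0.39 in the knockout (limma, adjusted p = 0.0296) and by 1.11 ± 0.39 in wild type (limma, adjusted p = 0.0432). Both calls were close to the threshold: without challenged knockout replicate 3 the knockout value was -0.87 (adjusted p = 0.0820), the call was also lost without untreated knockout replicate 1, 2 or 4, and without challenged wild type replicate 4 the wild type value was -0.75 (adjusted p = 0.103). With the 8 wild type arrays alone the wild type call was lost as well (adjusted p = 0.0677). The interaction for Calcrl was -0.21, with a 95% interval of -1.38 to 0.97.

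Of 9 other measured genes of the adrenomedullin and calcitonin gene-related peptide pathway, 2 rose and 0 fell with challenge in the knockout, and 3 rose and 1 fell in wild type, with a median of 0.04 in each. Ramp1, which turns Calcrl into a receptor for calcitonin gene-related peptide, rose by 0.76 ± 0.15 in the knockout (limma, adjusted p = 0.00318) and by 0.59 ± 0.15 in wild type (limma, adjusted p = 0.0113). The peptide gene Adm2 rose by 0.82 ± 0.22 in wild type (limma, adjusted p = 0.0147) and did not pass in the knockout (adjusted p = 0.251), where 1 of 4 challenged mice exceeded the 40th percentile of the array, so that no size is given. Pam, an enzyme that amidates peptide hormones, rose by 0.80 ± 0.22 in wild type (limma, adjusted p = 0.0152) and differed by 0.04 in the knockout (adjusted p = 0.927). Adrenomedullin itself (Adm) is counted among the 2 that rose in the knockout and as the 1 that fell in wild type, a fall not called without challenged knockout replicate 3 or challenged wild type replicate 4, and its probe was at background. It exceeded the 40th percentile in 3 of 4 challenged and 1 of 4 untreated knockout mice and in 0 of 4 mice of each wild type group, and no size is given. Adm was singled out after its values were seen.

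The junction genes fell in both genotypes. Cdh5 read 237.4, 249.7, 117 and 231.4 in challenged knockout mice, against 659.2, 691, 678.6 and 821.5 in untreated knockout mice. Challenged wild type mice had 477.7, 318.9, 469.1 and 516.8, against 917.2, 881.1, 679.1 and 1056.5 in untreated ones. The 4 challenged knockout values lay below the 4 challenged wild type values, which in turn lay below every untreated value. Cdh5 fell by 1.83 ± 0.22 in the knockout (limma, adjusted p = 9.57e-05), 3.55-fold, and by 0.99 ± 0.22 in wild type (limma, adjusted p = 0.00461), 1.99-fold.

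Ptprb read 2328.6, 2784.9, 889.9 and 2001.2 in challenged knockout mice, against 4880.3, 4931.5, 4656.9 and 5300.4 in untreated knockout mice. Challenged wild type mice had 2295, 2196.9, 3510.3 and 2257.3, against 5141.3, 5300.4, 4756.2 and 5269.6 in untreated ones. The challenged groups of both genotypes overlapped each other and lay below all untreated mice. Ptprb fell by 1.42 ± 0.26 in the knockout (limma, adjusted p = 0.00145) and by 1.02 ± 0.26 in wild type (limma, adjusted p = 0.00938).

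The 2 probes for Pecam1 gave the same calls over the 16 arrays; with the 8 wild type arrays fitted alone, the first did not pass for challenge in wild type (adjusted p = 0.0552) and the second did (adjusted p = 0.0303). The first read 458.6, 528.2, 240.6 and 448.7 in challenged knockout mice, against 899.8, 978.9, 900.2 and 1065.9 in untreated knockout mice. Challenged wild type mice had 621.6, 557.7, 884.9 and 306.6, against 1114.3, 1090.5, 1014.5 and 1131.8 in untreated ones. Its groups did not overlap in either genotype, and the lowest challenged wild type value was that of replicate 4. The second read 551.3, 631.6, 289 and 574.1 in challenged knockout mice, against 1444.5, 1358.2, 1289.5 and 1250.1 in untreated knockout mice. In wild type the second read 774.8, 582.9, 938 and 461 after challenge, against 1154.9, 1335.5, 1268.4 and 1166 without it. The order of the mice was similar on both probes, with a correlation of 0.909 between their deviations from the group means over 16 arrays. Their challenge differences were -1.25 and -1.44 in the knockout (limma, adjusted p = 0.00403 and 0.000535), and -0.97 and -0.89 in wild type (limma, adjusted p = 0.0138 and 0.0103).

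Of 13 measured junction genes outside the list, 5 fell and 1 rose with challenge in the knockout (median -0.34), and 6 fell and 1 rose in wild type (median -0.22). The catenin gene Ctnna1, which ties cadherins to actin, fell by 1.27 ± 0.13 in the knockout (limma, adjusted p = 3.94e-05) and by 0.94 ± 0.13 in wild type (limma, adjusted p = 0.000205). Vinculin (Vcl) had called differences of -0.97 in the knockout and -0.85 in wild type. Plakoglobin (Jup) was called lower in both, with 0 of 4 challenged mice of either genotype above the 40th percentile, against 1 of 4 untreated knockout and 4 of 4 untreated wild type mice, and no size is given. Epithelial cells also express these 3 genes.

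Vwf read 1396.6, 1153.3, 308.5 and 1651 in challenged knockout mice, against 2550.3, 2728.5, 2597 and 2765.4 in untreated knockout mice. In challenged wild type mice it read 1992, 1413, 2824.9 and 2464.6, against 3281.2, 3004.4, 2628.8 and 3021.6 in untreated ones. The knockout groups were apart, while challenged wild type replicate 3 lay above 1 untreated mouse. The differences were -1.48 ± 0.38 in the knockout (limma, adjusted p = 0.0128) and -0.50 ± 0.38 in wild type (limma, adjusted p = 0.312). Without challenged knockout replicate 3 the knockout value was -0.94 and still passed, and the wild type value passed as well (limma, adjusted p = 0.0466).

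Other genes of the granules that store Vwf, the Weibel-Palade bodies, moved unevenly. Of 8 measured, 2 fell and 1 rose with challenge in the knockout (median -0.34), and 2 fell and 1 rose in wild type (median -0.12). Over all tested probes 7.48% were called lower in the knockout and 17.7% in wild type. The knockout count rested on single arrays: 0 fell without challenged knockout replicate 3 and 4 without challenged wild type replicate 4. Endothelin 1 (Edn1), a vasoconstrictor peptide, had differences of -1.48 ± 0.40 in the knockout (limma, adjusted p = 0.0200) and -1.80 ± 0.40 in wild type (limma, adjusted p = 0.00493). Angiopoietin 2 (Angpt2) fell by 0.62 in the knockout and differed by -0.28 in wild type without passing. Without challenged knockout replicate 3 neither passed in the knockout, Edn1 at -1.21 (limma, adjusted p = 0.0702) and Angpt2 at -0.42 (limma, adjusted p = 0.0917). Unc13d, which primes granules for release, fell by 1.12 in wild type and differed by -0.50 in the knockout, where it passed when challenged wild type replicate 4 was left out (limma, adjusted p = 0.0238). Platelets also carry Vwf: of 7 platelet genes 1 rose and 0 fell in each genotype, the chemokine gene Pf4, by 0.54 in the knockout and 0.75 in wild type.

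Lyve1 read 708.4, 623.9, 184.3 and 624.7 in challenged knockout mice, against 2593.7, 2141.3, 2138.5 and 2928.9 in untreated knockout mice. In challenged wild type mice it read 800.5, 849.4, 1163.4 and 820.6, against 2737.2, 3187.4, 2323.1 and 2506 in untreated ones. No challenged mouse reached the level of any untreated mouse, and all 4 challenged knockout mice lay below all 4 challenged wild type mice. Lyve1 had the largest challenge difference of the 10 probes in each genotype, -2.35 ± 0.32 in the knockout (limma, adjusted p = 0.000185) and -1.57 ± 0.32 in wild type (limma, adjusted p = 0.00239). Relative to the mean of the other probes it was lower after challenge by nearly the same amount in both, with differences of -0.78 in the knockout and -0.79 in wild type.

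Most other lymphatic genes did not pass, nor did most probes of the array. Of 11 measured, 1 rose and 0 fell with challenge in the knockout (median 0.09), and 0 rose and 1 fell in wild type (median 0.20). Of all tested probes, 16.6% were called in either direction in the knockout and 29.4% in wild type. With 11 genes, these counts do not set the list apart from the array. Without challenged wild type replicate 4 the knockout counts were 1 higher and 2 lower. Prox1, the transcription factor that defines lymphatic endothelium, differed by 0.34 in the knockout (limma, adjusted p = 0.117) and by 0.33 in wild type (limma, adjusted p = 0.0864), and its probe was dim. The chemokine gene Ccl21a, secreted by lymphatic endothelium, differed by -0.05 in the knockout and 0.31 in wild type (limma, adjusted p = 0.947 and 0.572). Ackr2, a chemokine scavenger of lymphatic endothelium, fell by 1.37 ± 0.36 in wild type (limma, adjusted p = 0.0122) and differed by -0.91 in the knockout (adjusted p = 0.104). The ion pump regulator gene Fxyd6 rose by 0.92 ± 0.22 in the knockout (limma, adjusted p = 0.00958) and differed by 0.46 in wild type (adjusted p = 0.127). Of 8 genes of the macrophages that carry Lyve1, 1 fell in the knockout, Cbr2 at -1.08 (limma, adjusted p = 0.0175), and 0 in wild type, with medians of 0.15 and 0.00. Which cells of these lungs carried Cbr2 was not tested. Prox1 and Ccl21a were named after their values were seen.

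**Figure D2:**
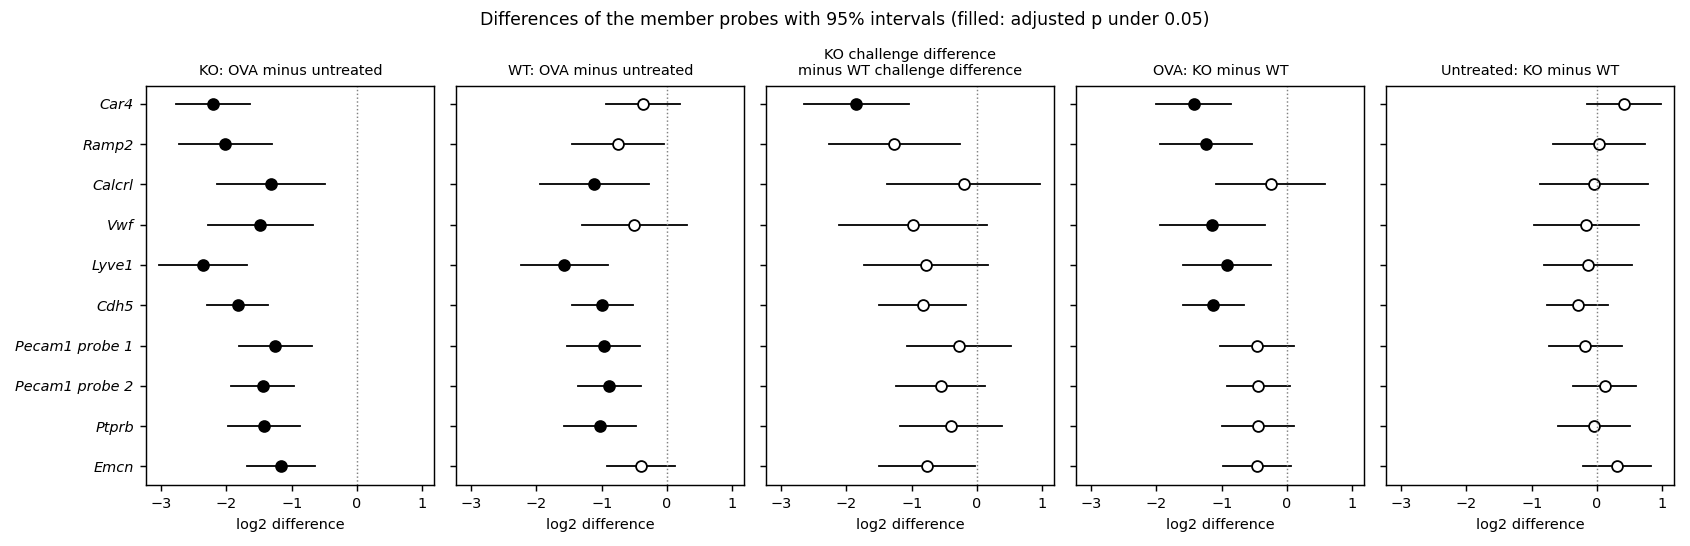
Log2 differences of the 10 probes with 95% intervals from limma, for challenged minus untreated knockout, challenged minus untreated wild type, the knockout challenge difference minus the wild type one, challenged knockout minus challenged wild type, and untreated knockout minus untreated wild type; filled points have an adjusted p under 0.05. All 10 points are filled for challenge in the knockout, 6 in wild type, 1 (Car4) for the difference between them, 5 between challenged genotypes and 0 between untreated ones.

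Challenged knockout and challenged wild type lungs differed in 5 of the 10 probes, all lower in the knockout, where 23.1% of all probes were called lower and 44.2% in either direction. These were Car4 at -1.43 ± 0.27 (limma, adjusted p = 0.00117), Ramp2 at -1.24 ± 0.33 (adjusted p = 0.00873), Vwf at -1.14 ± 0.38 (adjusted p = 0.0235), Cdh5 at -1.13 ± 0.22 (adjusted p = 0.00151) and Lyve1 at -0.92 ± 0.32 (adjusted p = 0.0285). In 4 of 10 probes all challenged knockout mice lay below all challenged wild type mice (18.6% of all probes), and Vwf was the called probe whose groups overlapped. Calcrl, both probes for Pecam1, Ptprb and Emcn differed by -0.25 to -0.46 and did not pass. The median of the 10 was -0.69, against 0.00 for all probes. Without challenged knockout replicate 3 the same 5 probes were called, but the median was -0.34, Ramp2 stood at -0.77, Vwf at -0.60 and Lyve1 at -0.46, and Calcrl was positive at 0.19. The calls for Vwf and Lyve1 were lost without challenged wild type replicate 3 (adjusted p = 0.0530 and 0.0647), and those for Ramp2, Vwf and Lyve1 when the 8 challenged arrays were fitted alone (adjusted p = 0.0769, 0.123 and 0.125). Without challenged wild type replicate 4 both Pecam1 probes were called as well, 7 in all.

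In untreated lungs none of the 10 probes was called between knockout and wild type by limma, 0 had an unadjusted p under 0.05, and 3 of 17810 probes were called over the array (0.0168%). The differences ran from -0.30 for Cdh5 to 0.42 for Car4, 4 positive and 6 negative. Their 95% intervals reached from -0.96 at the lowest to 0.98 at the highest. These tests and intervals used 1 spread shared by all 4 groups, challenged mice included. For Car4 the log2 SD was 0.11 in untreated knockout and 0.18 in untreated wild type mice. It was 0.74 and 0.31 in the challenged groups, in the same order. With the untreated arrays fitted alone, 0 of the 10 probes were called (Car4: limma, adjusted p = 0.318), and 13 probes were called over the array.

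The challenge difference was more negative in the knockout than in wild type for 10 of 10 probes, with a median interaction of -0.78 against 0.01 for all probes. Without challenged knockout replicate 3 it was more negative for 9 of 10, all but Calcrl at 0.24, and the median was -0.38; it was also more negative for 9 of 10 without challenged wild type replicate 3, with a median of -0.71. Only Car4 passed as a difference between genotypes by limma, 1 of 10 where 3.67% of all probes were called lower and 9.33% in either direction. Ramp2 (-1.27, adjusted p = 0.0899), Cdh5 (-0.83, adjusted p = 0.0919) and Emcn (-0.77, adjusted p = 0.141) had unadjusted p under 0.05 without passing. The remaining probes had interactions of -0.98 (Vwf) to -0.21 (Calcrl) with intervals that included 0. The 10 probes share the same 16 arrays, so their common sign is not 10 independent results.

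**Figure D3:**
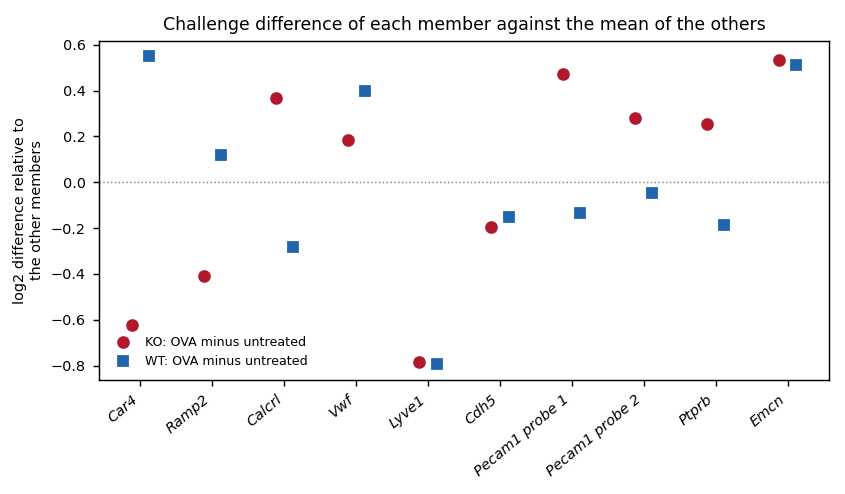
Challenge difference (log2, challenged minus untreated) of each probe relative to the mean of the other 9 probes on the same arrays, in knockout (circles) and wild type mice (squares); a value below 0 means that the probe was lower by more than the others. Lyve1 sits at -0.78 in the knockout and -0.79 in wild type, Emcn at 0.53 and 0.51, and Car4 at -0.62 and 0.55, in the same order.

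Car4 departed from the other probes in opposite directions in the genotypes. Relative to the mean of the other 9 probes it averaged -0.71 ± 0.11 in challenged knockout mice and -0.09 ± 0.09 in untreated knockout mice (log2, SD, n = 4 each). In wild type it averaged -0.00 ± 0.34 after challenge and -0.55 ± 0.13 without it. The challenged wild type values ran from -0.20 to 0.51, the highest in replicate 4, the array that stood apart over all probes. The relative difference was not computed without that array. Lyve1 and Emcn, in contrast, shifted relative to the others by similar amounts in both genotypes, Emcn with relative differences of 0.53 in the knockout and 0.51 in wild type. Ramp2 differed by -0.41 in the knockout and by 0.12 in wild type.

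The 10 probes moved together within the groups. The mean log2 level of the 10 was 7.95 in challenged knockout replicate 3, against 9.39 to 9.50 in the other 3 challenged knockout mice and 10.62 to 10.79 in untreated knockout mice. It was 9.91, 9.62, 10.25 and 9.64 in challenged wild type mice, against 10.62 to 10.79 in untreated wild type mice. Challenged knockout replicate 3 was the lowest of its group on 10 of 10 probes and challenged wild type replicate 3 the highest of its group on 7 of 10. Over the deviations of the 16 arrays from their group means, 45 of 45 pairs of probes correlated positively. The median r was 0.78, with a range of 0.455 to 0.967, and all pairs share the same arrays. These correlations include challenged knockout replicate 3, far below its group in the mean of the 10, and were not computed without it. Ptprb followed the mean of the others most closely (r = 0.954) and the first Pecam1 probe least (r = 0.758, or 0.944 over the 15 arrays without challenged wild type replicate 4).

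Without challenged knockout replicate 3, 9 of 10 probes passed for challenge in the knockout, all but Calcrl, with Lyve1 at -1.90 and Car4 at -1.84. In the same fit 9 of 10 passed in wild type, and Car4 stayed the 1 called interaction (-1.48, limma, adjusted p = 0.00606). Without both that array and challenged wild type replicate 4, a setting chosen after the data were seen, 10 passed in each genotype and the interaction was called for Car4 and Ramp2. The sign of the challenge differences did not depend on either array.

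The genes outside the list whose deviations followed the mean of the 10 probes best were Igfbp7 (r = 0.982 over 16 arrays), Col4a2 (0.970), Fth1 (0.968), Slco2a1 (0.966) and Napsa (0.965). Igfbp7 encodes a secreted protein of vessel walls, Col4a2 a collagen of basement membranes, Fth1 the ferritin heavy chain, Slco2a1 a prostaglandin transporter and Napsa a protease of alveolar type 2 cells. The challenge differences of Col4a2 were -1.56 in the knockout and -0.86 in wild type, and those of Fth1 -0.81 and -0.41; all 4 passed. Igfbp7 fell by 1.01 and Slco2a1 by 1.29 in the knockout, and neither passed in wild type (-0.45 and -0.62). Napsa passed in neither (-0.36 and -0.19). Over the 15 arrays without challenged wild type replicate 4 the 5 best were Igfbp7, Esam, Slco2a1, Fth1 and Aqp1. Both rankings include challenged knockout replicate 3, whose endothelial level lay far below its group, and none was made without it.

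Many other endothelial genes fell as well. Of 24 further genes common to endothelium, 14 fell and 0 rose with challenge in the knockout (median -0.84), and 12 fell and 0 rose in wild type (median -0.49). Of all tested probes, 7.48% were called lower in the knockout and 17.7% in wild type. Which genotype had more calls depended on single arrays. Without challenged knockout replicate 3, 12 fell in the knockout (median -0.58) and 17 in wild type (median -0.49). Without challenged wild type replicate 4, 16 fell in the knockout and 11 in wild type. The angiopoietin receptor Tek differed by -2.12 ± 0.57 in the knockout (limma, adjusted p = 0.0171) and by -2.18 ± 0.57 in wild type (limma, adjusted p = 0.0111). The adhesion receptor gene Adgrl4 had called differences of -1.87 in the knockout and -1.33 in wild type, and endoglin (Eng), a co-receptor for TGF-beta family ligands, of -1.79 and -1.10. Probes for Kdr and Tie1, 2 defining endothelial receptors, were dim: Tie1 lay above the 40th percentile in 3 of 4 challenged knockout mice and 4 of 4 untreated knockout mice, and in 1 of 4 challenged and 4 of 4 untreated wild type mice.

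Of 13 measured capillary genes outside the list, 8 fell and 0 rose in each genotype, with medians of -1.01 in the knockout and -1.01 in wild type. In the knockout 6 fell without challenged knockout replicate 3, and 11 without challenged wild type replicate 4, against 9 in wild type in both fits. The prostaglandin-degrading enzyme gene Hpgd had the largest differences, -2.64 ± 0.44 in the knockout (limma, adjusted p = 0.000839) and -1.75 ± 0.44 in wild type (limma, adjusted p = 0.0097). Tmem100, a membrane protein gene of endothelium, had called differences of -2.54 in the knockout and -1.65 in wild type. The guidance factor gene Sema3c fell by 1.69 in wild type and differed by -1.01 in the knockout without passing.

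Of 15 artery and vein genes, 6 fell and 0 rose with challenge in the knockout (median -0.36), where 7.48% of all tested probes were called lower. In wild type 3 fell and 0 rose (median -0.28), near the 17.7% of all tested probes called lower there. The ephrin gene Efnb2, an arterial marker, had called differences of -1.29 in the knockout and -1.07 in wild type. Those of the noradrenaline transporter gene Slc6a2 were -1.45 in the knockout and -1.25 in wild type, and those of the receptor gene Notch4 -0.93 and -0.66.

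**Figure D4:**
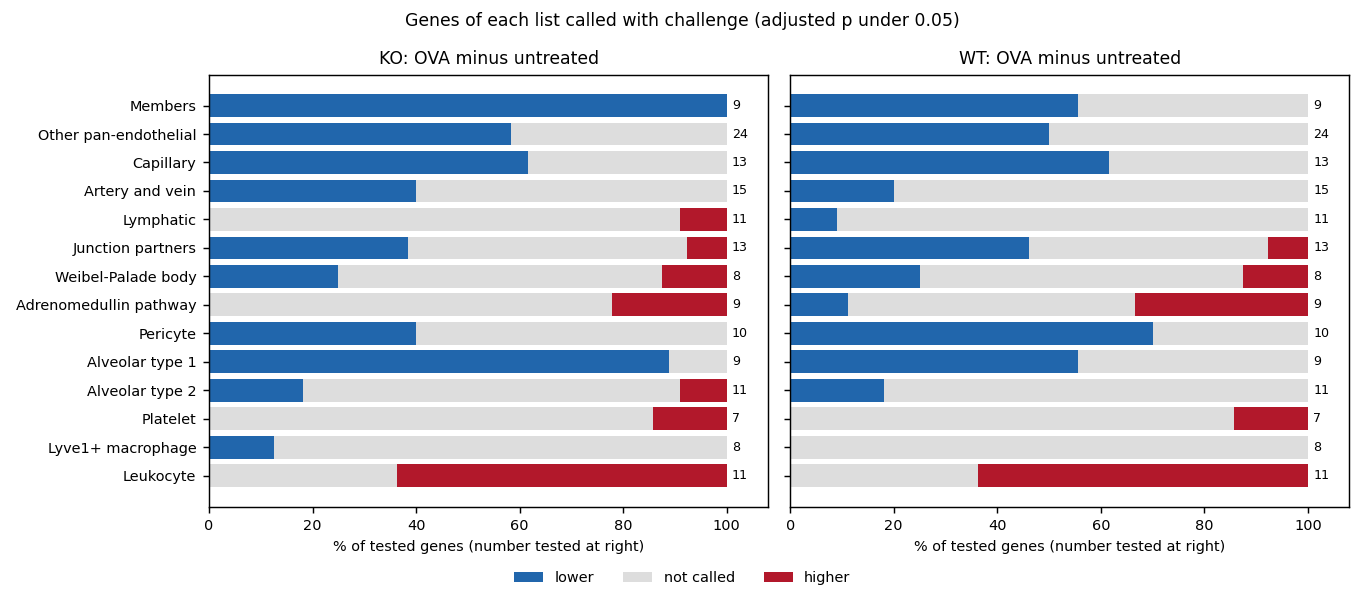
Share of the tested genes of each list called lower (blue), called higher (red) or not called (grey) with challenge in knockout (left) and wild type mice (right), with the number of tested genes at the right of each bar and 1 probe per gene. The 9 listed endothelial genes stand at the top, all lower in the knockout and 5 of 9 lower in wild type; the lymphatic list has 1 called gene of 11 in each genotype.

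Markers of other cell types moved on the same arrays. Of 10 pericyte genes, 4 fell and 0 rose with challenge in the knockout and 7 fell and 0 rose in wild type, with the guanylate cyclase subunit gene Gucy1a1 at -1.77 in the knockout and -1.97 in wild type. Of 9 genes of alveolar type 1 cells, the flat cells that face the capillaries, 8 fell in the knockout (median -1.62) and 5 in wild type (median -0.88; 8 without challenged knockout replicate 3), with Emp2 at -2.25 and -1.51. Over the 11 genes of that list with a probe, summed intensity was 5910.6 to 21857.7 in challenged and 37172.4 to 42211.1 in untreated knockout mice. In wild type mice it was 16309.4 to 25899.9 after challenge and 38004.7 to 40676.5 without it. Of 11 type 2 cell genes, 2 fell and 1 rose in the knockout, and 2 fell and 0 rose in wild type. Over all tested probes 7.48% were called lower in the knockout and 17.7% in wild type, so the wild type count was near that share. Abca3, a surfactant lipid transporter, stood at -1.21 and -0.73. Etv5 was called lower in wild type (limma, adjusted p = 0.000185) and not called in the knockout (adjusted p = 0.967). The interaction was called for 2 of the 11 type 2 genes, both positive, opposite in sign to that of Car4. Etv5 was 1 of them (limma, adjusted p = 0.0130). In wild type 4 type 2 genes fell without challenged knockout replicate 3, and the knockout median of the list was 0.16, against -0.35 with all arrays; 3 fell in the knockout without challenged wild type replicate 4. Of 11 leukocyte genes 7 rose and 0 fell in each genotype, and their summed intensity was 21242.8 to 26941.3 in challenged and 17520.9 to 19692.7 in untreated knockout mice, and 24290.2 to 33615.7 in challenged and 16918.7 to 18926.9 in untreated wild type mice. The leukocyte surface gene Cd52 rose by 2.12 and 2.19.

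Muscle genes were higher in challenged lungs. Of 16 skeletal muscle genes, 15 rose and 0 fell in the knockout (median 2.33), and 12 rose and 0 fell in wild type (median 1.45). Over the 17 genes of that list with a probe, summed intensity was 73705.7 to 115482 in challenged and 18977.2 to 36587.2 in untreated knockout mice. In wild type it was 20768.9 to 103760 after challenge and 13381.5 to 26918.8 without it, and challenged wild type replicate 3, with the highest level of the endothelial probes in its group, had the lowest sum. Of 13 cardiac muscle genes, 7 rose in the knockout and 5 in wild type, and 0 fell; without challenged wild type replicate 4, 10 rose in the knockout and 3 in wild type. The ventricular light chain gene Myl2 exceeded the 40th percentile in 4 of 4 challenged knockout mice and 3 of 4 challenged wild type mice, against 0 of 4 untreated mice in each genotype.

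When the mean log2 level of the skeletal muscle list entered the fit as a covariate, the 10 challenge differences in the knockout remained negative, -1.66 for Car4 and -1.51 for Cdh5 among them and -0.77 for Vwf nearest to 0, and none passed by limma (5 had an unadjusted p under 0.05); over the array 44 of 17810 probes were called in that fit. In wild type 9 of 10 were negative, from -1.33 for Lyve1, none passed (2 had an unadjusted p under 0.05), and Car4 stood at 0.0053; 704 probes were called. Between challenged genotypes 2 probes passed, Car4 (-1.20) and Cdh5, and the interaction was called for Car4 (-1.67, limma, adjusted p = 0.0224). The muscle level and challenge are largely shared between the groups in the knockout, whose 2 groups did not overlap in it. The part of the type 1 cell and leukocyte genes in the endothelial differences was not tested.

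**Figure D5:**
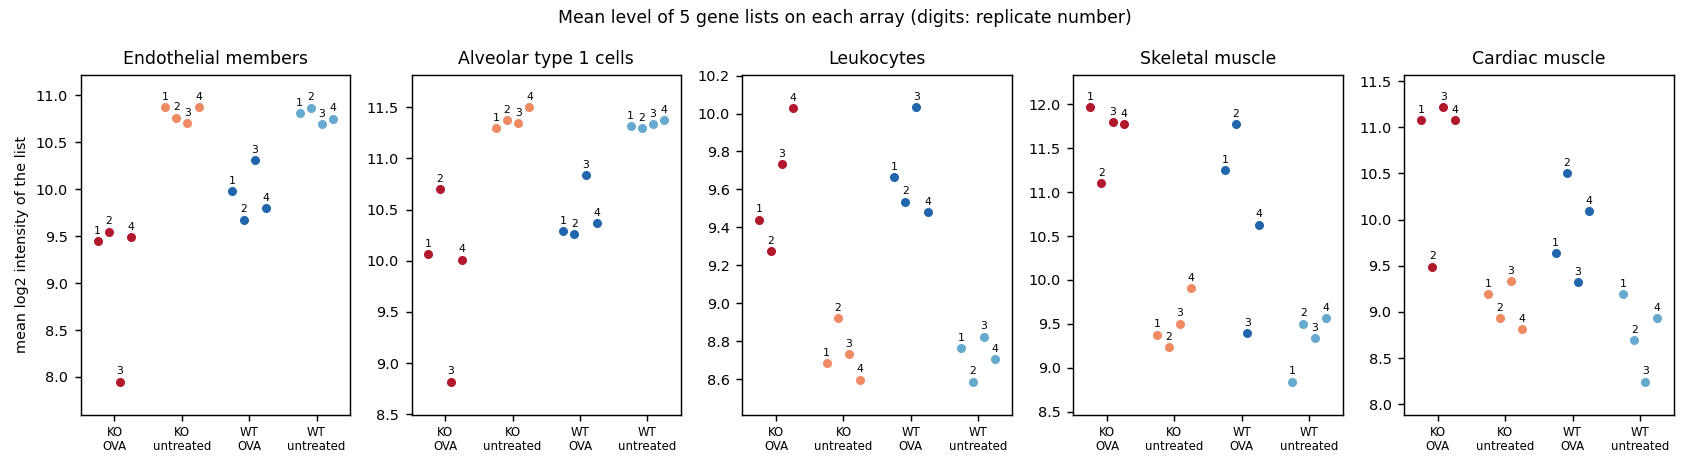
Mean log2 intensity of the tested genes of 5 lists on each array (1 probe per gene), in challenged knockout, untreated knockout, challenged wild type and untreated wild type mice; digits give the replicate number and each panel has its own vertical axis. Challenged knockout replicate 3 is lowest on the endothelial and type 1 cell lists, and challenged wild type replicate 3 is the challenged mouse with the lowest skeletal muscle level and the highest endothelial level.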

How the data were processed

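Per the labels, RNA from lung was extracted with Trizol, cleaned on a column, judged by gel electrophoresis and turned into biotin-labelled cRNA. The authors deposited 1 linear intensity per probe and array; per the submitters' processing notes the program was GenomeStudio 2011.1. Normalization and background treatment are not given in the sources used here. The distributions of the 16 arrays were nearly alike, so the values were used without further normalization, raised to a floor of 16 (1123 of 411152 values) and turned into log2. The number of arrays limits the precision. A probe was tested where 4 or more arrays had it above their 40th percentile. A mean per group was fitted over the 16 arrays with limma 3.58.1 in R 4.3.3 (lmFit, eBayes), with calls made at an adjusted p below 0.05 (Benjamini-Hochberg over all tested probes within a comparison). The labels name a mouse for each array, and p-values measure the spread between mice. The fit was tested on simulated data.

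Symbols came from the platform annotation, with 10 of 10 probes matched to RefSeq by gene identifier. Genes outside the 9 are counted in lists through a single probe each, that of highest mean. The text names all 10 probes; from each list up to 3 called genes with the largest difference, or the gene with the smallest p where none was called; and the 5 genes closest to the mean deviation of the 10 probes. Not every gene so named is printed. The genes, lists and tests were chosen with earlier results of these data known. The number of columns left unused was 0.

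Alternatives were a floor of 32, a filter at the 60th percentile, no filter, quantile normalization, median centring, cyclic loess, trended and robust eBayes, arrayWeights, the arrays of a comparison alone, the replicate number as a block, the skeletal muscle mean as covariate, and leaving out each array. Leaving out 2 arrays together was added after the data were seen.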

Additional observations from a re-analysis of the deposited data

Results flagged for a closer look

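In 4 of the 40 sets of 4 mice (10 probes in 4 groups) 1 mouse lay far from the other 3 by Dixon's criterion, which chance meets in about 1 set in 20. Challenged knockout replicate 3 read 184.3 for Lyve1, against 623.9 to 708.4 in the other 3 mice of its group, and 117 for Cdh5, against 231.4 to 249.7. Challenged wild type replicate 3 read 1163.4 for Lyve1, against 800.5 to 849.4 in the other 3 mice of its group, and 3510.3 for Ptprb, against 2196.9 to 2295. The first array was also the lowest of its group on the other probes, and the second the highest of its group on 7 of 10.

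Car4 was the probe whose challenge difference differed between the genotypes by a test of that difference, at -1.85 (limma, adjusted p = 0.0140). It stayed called in all alternative fits run, with values of -2.01 to -1.40.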

How the results depend on the processing

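Leaving out 1 array at a time gave 9 to 10 called probes for challenge in the knockout, 5 to 9 in wild type, 3 to 7 between challenged genotypes, 0 to 0 between untreated ones and 1 to 2 for the interaction. Between challenged genotypes, 3 were called without challenged wild type replicate 3 and 2 when the 8 arrays of the comparison were fitted alone. With the skeletal muscle covariate 0 were called for challenge in the knockout, 0 in wild type and 2 between challenged genotypes; fewer probes of the whole array were called there too. With arrayWeights, and without challenged wild type replicate 2, 2 interactions were called, as without the 2 arrays that stand apart, where 10 were called in wild type. For other reversals and losses the cause was not tested.

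The differences that changed sign had not passed. They were Car4 for challenge in wild type (0.0053 with the covariate), Calcrl between challenged genotypes (-0.61 to 0.19 without 1 array, highest without challenged knockout replicate 3), and Calcrl in the interaction (-0.57 to 0.24, positive without challenged knockout replicate 3 and, at 0.015, without challenged wild type replicate 3). Between untreated genotypes they were Calcrl (0.0022 with the covariate, and -0.14 to 0.065 without 1 array), Ptprb (0.0051 with the covariate) and Ramp2 (-0.016 to 0.069 without 1 array). The call for Calcrl in wild type held in 5 of 16 fits without 1 array, with adjusted p up to 0.103.

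Mice with the same replicate number did not deviate together in every comparison (r of -0.09 to 0.32), and the numbers were not taken as pairs. With the replicate block 10 probes were called for challenge in the knockout, 5 in wild type, 5 between challenged genotypes, 0 between untreated ones and 1 for the interaction. The 10 probes lay above the 40th percentile (75.4 to 76.2 intensity units) on all 16 arrays. Some values were still low: Calcrl read 91 in challenged knockout replicate 3, near the array medians of 85.4 to 86.5. It read 128.9 in challenged wild type replicate 4, and Cdh5 read 117 in challenged knockout replicate 3. How far background limited the differences there was not tested.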
